A study of Mus musculus with 6 samples.

Results

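AP-1 is a dimeric transcription factor assembled from basic leucine zipper proteins, and 10 genes that encode such proteins or close relatives are described here: Fos, Fosb, Fosl2, Jun, Junb, Jund, Atf3, Batf, Maff and Mafk. They were 10 of the 28773 genes listed, found by symbol, and they were chosen by their measured values in the comparison described below, so those values are given as a description, without a test. The level of each gene is given in FPKM, a fragment count divided by the length of the transcript and by the size of the library. Of the 10 genes, 9 passed the filter of a mean of at least 1 FPKM over the 6 samples; Maff, with a mean of 0.498 FPKM, did not. The study asked how blocking glycolysis after local tumor ablation shapes CD8+ T cell memory. RNA was sequenced from 6 samples of CD8+ T cells taken from mouse spleens on day 35. In both groups the mice bore an implanted tumor that was treated by microwave ablation (MWA). The MWA+PBS group, with replicates 1 to 3, received the PBS vehicle afterwards, and the MWA+2DG group, with replicates 4 to 6, received 2-deoxy-D-glucose, a glucose analogue that hinders the early steps of glycolysis, with the last injection some days before the spleens were taken. The study's methods give wild-type female mice of 6 weeks at the start. The methods name BALB/c and C57BL/6 mice and several tumor lines, and which of them gave these samples is not stated in the sources used here. Neither group lacked the tumor or the ablation, so the values compare the drug with its vehicle after ablation. Nothing in the sources used here says whether a sample was a single animal or a pool, so p-values measure only the spread between these samples, which may be technical.

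AP-1 binds DNA as a pair of proteins. FOS proteins need a JUN partner, whereas JUN proteins also pair with each other, with ATF proteins and with BATF. Many FOS and JUN genes are immediate early genes, transcribed within minutes of T cell receptor, growth factor or stress signals through MAP kinases, and their mRNAs are short-lived. In T cells, AP-1 acts with NFAT at cytokine genes, and BATF with JUN proteins and IRF4 takes part in effector differentiation. The small MAF proteins carry a leucine zipper but no transactivation domain, and they pair with NFE2-related and BACH factors.

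The labelled cell type was checked first. Cd8a, which encodes a chain of the CD8 co-receptor, stood at 232 ± 6.96 FPKM in MWA+PBS versus 366 ± 9.47 in MWA+2DG (SD, n = 3), and Cd3e, a chain of the T cell receptor complex, at 97.3 ± 7.98 and 127 ± 13.2. Cd4 was at 2.75 ± 0.160 and 1.66 ± 0.110. RNA of other cell types was present and differed between the groups. Macrophage markers summed to 822–886 FPKM in MWA+PBS against 320–355 in MWA+2DG, neutrophil markers to 337–366 against 1627–1808, and none of the 14 macrophage, 13 neutrophil, 15 T lineage or 9 B cell markers was at 0 in all samples of a group. In bulk RNA, fewer cells of a type and less RNA per cell cannot be told apart. Lyz2, a macrophage marker that neutrophils also express and that went the other way, held up the macrophage sum: without it, a step chosen after its values were seen, the other 13 summed to 662–717 FPKM in MWA+PBS against 110–117 in MWA+2DG. Mpo and Elane did the same for the neutrophil sum in MWA+PBS, and without both the other 11 summed to 66.6–91.3 against 1583–1763 FPKM, 21.4 times as high in MWA+2DG. How much of the AP-1 values came from CD8+ T cells and how much from the other cells was not tested.

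The 10 genes together were abundant in the vehicle group and far less so after 2DG. Their summed level was 431, 395 and 401 FPKM in MWA+PBS replicates 1 to 3 versus 136, 132 and 127 in MWA+2DG replicates 4 to 6. The sum was 3.11 times as high in MWA+PBS (409 ± 19.2 against 131 ± 4.51). All 3 MWA+2DG values lay below all 3 MWA+PBS values for 9 of the 10 genes, Mafk being the exception. Over all 12444 genes that passed the filter, 21.9% had their groups apart in that direction, and since the genes were chosen on this contrast nothing is read from the difference. The median log2 fold change, MWA+2DG minus MWA+PBS on log2(FPKM + 1), was -0.61 over the 10 genes and 0.05 over all genes tested. The added 1 understates the change of low genes.

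**Figure D1:**
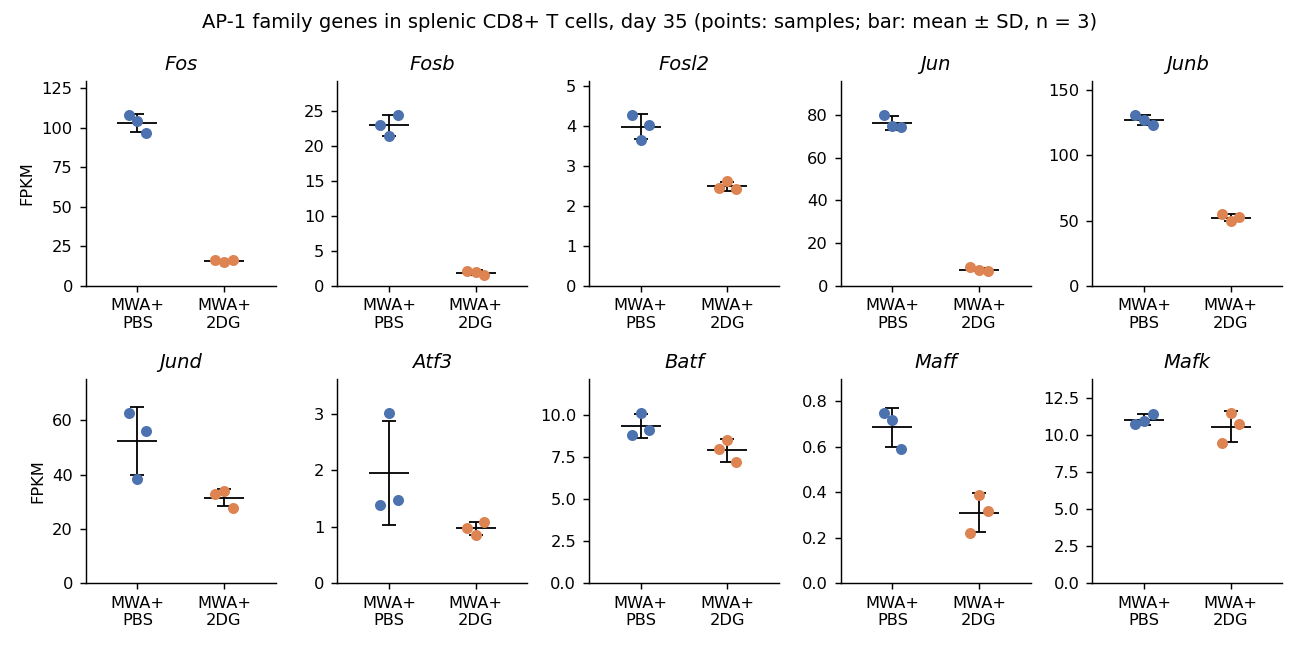
FPKM (y axis, from 0) of each AP-1 family gene in the 3 MWA+PBS samples (blue, replicates 1 to 3 from left to right) and the 3 MWA+2DG samples (orange, replicates 4 to 6), with the mean and SD in black. The groups are apart in every panel except Mafk; in Jund and Atf3, MWA+PBS replicate 2 stands away from the other two.

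Fos, the founding partner of JUN in the inducible AP-1 dimer, was among the most abundant of the 10 genes in MWA+PBS. It stood at 108, 104 and 96.5 FPKM in MWA+PBS versus 16.3, 15.1 and 16.1 FPKM in MWA+2DG. Every MWA+PBS sample was far above every MWA+2DG sample, and the spread within each group was small (103 ± 5.92 against 15.8 ± 0.662). The level was 6.51 times as high in MWA+PBS, and the log2 fold change was -2.63 ± 0.06 (SE). Fosb, a paralog of Fos induced by the same signals, stood at 23.0, 21.4 and 24.4 FPKM in MWA+PBS versus 2.17, 1.93 and 1.54 in MWA+2DG. Again the groups did not overlap, and the ratio of 12.2 was the highest of the 10 genes (log2 fold change -3.06 ± 0.09). Fosl2 encodes FRA2, a FOS relative without the strong transactivation domain of FOS, which usually appears later and lasts longer. It was a low transcript, at 4.26, 3.63 and 4.02 FPKM in MWA+PBS versus 2.43, 2.62 and 2.42 in MWA+2DG. Its groups were apart by a smaller step, a ratio of 1.59 (log2 fold change -0.51 ± 0.08). Fosb thus differed in proportion to Fos as well: the ratio of Fosb to Fos FPKM was 0.223 ± 0.0256 in MWA+PBS versus 0.119 ± 0.0203 in MWA+2DG, with no overlap between the groups.

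The promoter sequences of Fos and Fosb, the FOS genes with the widest gap between the groups, are shown to set their CRE-type elements side by side. The stretches are from RefSeq on GRCm38.p6 and end at the base before the annotated start, which is numbered 0 here. Fos lies at chr12:85473780-85473889 on the plus strand and Fosb at chr7:19310046-19310155 on the minus strand. Capitals mark TGACG, the core of the element bound by CREB and ATF proteins, and the core promoter box TATAAA.
Fos: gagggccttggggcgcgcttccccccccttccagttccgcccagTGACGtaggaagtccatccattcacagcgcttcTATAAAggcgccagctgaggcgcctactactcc
Fosb: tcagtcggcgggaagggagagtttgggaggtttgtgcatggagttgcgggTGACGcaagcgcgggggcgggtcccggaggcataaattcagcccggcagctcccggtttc
TGACG began at -66 in Fos, with another copy at -129, and at -60 in Fosb. In a window from 250 bases before to 50 after the start, TGACG, searched on both strands, was present for 7 of the 10 genes (Fos, Fosb, Junb, Atf3, Batf, Maff and Mafk) and in 20.8% of all 32851 RefSeq promoter windows. TATAAA on the gene's strand was present for Fos, at -33, and for Junb, at 0, the annotated start itself and outside the stretch printed for it. It was present in 8.32% of all windows.

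Jun, the gene of c-Jun, had, with Fosb, the widest log2 fold changes of the 10; with a pseudocount of 0.1 in place of 1 that of Fosb, -3.55, was wider than that of Jun, -3.32. Its level was 79.9, 74.8 and 74.2 FPKM in MWA+PBS versus 8.54, 7.19 and 6.97 FPKM in MWA+2DG. The lowest MWA+PBS sample was several times the highest MWA+2DG sample, and the ratio of the means was 10.1 (log2 fold change -3.18 ± 0.08). Junb encodes a JUN protein that activates less strongly than c-Jun at many sites and that also pairs with BATF. It was the most abundant of the 10 genes in both groups, at 131, 127 and 123 FPKM in MWA+PBS versus 54.9, 49.4 and 52.6 in MWA+2DG. The groups were apart, with a ratio of 2.43 (log2 fold change -1.27 ± 0.06). Jund, the JUN gene that is expressed in most resting cells, stood at 62.7, 38.3 and 55.9 FPKM in MWA+PBS versus 32.9, 34.0 and 27.9 in MWA+2DG. MWA+PBS replicate 2 was only slightly above the highest MWA+2DG sample, and the coefficient of variation in MWA+PBS was 24.1%. The ratio was 1.66 (log2 fold change -0.69 ± 0.17). Without single libraries the log2 fold change ran from -0.89, without MWA+PBS replicate 2, to -0.54, without MWA+PBS replicate 1. Jun therefore differed against its own paralogs: the ratio of Jun to Junb FPKM was 0.600 ± 0.0116 in MWA+PBS versus 0.145 ± 0.0116 in MWA+2DG, and that of Jun to Jund was 1.52 ± 0.376 and 0.240 ± 0.0254. Both ratios were lower in each MWA+2DG sample than in any MWA+PBS sample.

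The Jun and Junb promoters are printed because these neighbours in function differed in fold. They are RefSeq stretches on GRCm38.p6 at chr4:95052223-95052332 for Jun and chr8:84978749-84978858 for Junb, both on the minus strand and written 5′ to 3′ along the gene. In Jun the capitals mark TGACATCA, the variant AP-1 element known from this promoter, and in Junb they mark TGACG.
Jun: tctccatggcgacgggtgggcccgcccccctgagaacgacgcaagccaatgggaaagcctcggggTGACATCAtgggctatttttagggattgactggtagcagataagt
Junb: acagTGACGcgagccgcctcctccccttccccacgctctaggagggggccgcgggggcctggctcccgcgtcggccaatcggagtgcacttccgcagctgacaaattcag
TGACATCA began at -45 in Jun. On both strands it was found for Jun and Maff among the 10 genes and in 3.62% of all windows. The classical AP-1 site TGANTCA was found in 7.81% of all windows, on both strands, and for 0 of the 10 genes. GAANNTTC, part of the heat shock element, was found for Fosl2 and Jun and in 7.86% of all windows. The CArG box, the site of serum response factor, was found in 1.63% of windows and for 0 of the 10 genes. These windows cover a short stretch, and a match or its lack in them is only a description of the letters.

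The transcripts of Jun, Junb, Jund and Mafk overlap exons of a gene on the opposite strand in the GENCODE M21 annotation of GRCm38. Whether strand was used in the authors' quantification is stated in none of the sources used here, and without it reads of the partners cannot be told apart. Prdx2, the partner of Junb, encodes a peroxide-reducing enzyme and stood at 12.9 ± 1.31 FPKM in MWA+PBS versus 7.51 ± 0.356 in MWA+2DG, well under Junb itself. The partners of the other genes, Junos beside Jun, Gm11175 beside Jund and Tmem184a beside Mafk, had a mean of 0.0833 FPKM or less in each group.

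Atf3 and Batf encode partners that bring JUN proteins to other sites. Atf3 is a stress-induced member of the ATF family that often represses. It was low throughout, at 1.38, 3.02 and 1.47 FPKM in MWA+PBS versus 0.980, 0.860 and 1.09 in MWA+2DG. The groups did not overlap, but MWA+PBS replicate 2 stood above its own group, whose coefficient of variation was 47.1%, the highest of any gene and group. The ratio was 2.00 and the log2 fold change -0.54 ± 0.20, or -0.85 with a pseudocount of 0.1. Without MWA+PBS replicate 2 the log2 fold change was -0.30. Batf, which pairs with JUN proteins and works with IRF4 in lymphocytes, stood at 8.78, 10.1 and 9.08 FPKM in MWA+PBS versus 7.99, 8.52 and 7.17 in MWA+2DG. The lowest MWA+PBS and the highest MWA+2DG sample were close, and the ratio was 1.18 (log2 fold change -0.22 ± 0.08). Batf was about as abundant as Jun in MWA+2DG and far below it in MWA+PBS: the ratio of Batf to Jun FPKM was 0.122 ± 0.0127 in MWA+PBS versus 1.05 ± 0.126 in MWA+2DG.

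The small MAF genes Maff and Mafk were at different levels. Maff stood at 0.750, 0.720 and 0.590 FPKM in MWA+PBS versus 0.220, 0.390 and 0.320 in MWA+2DG. Its groups were apart at a level under the filter, with a ratio of 2.22 and a log2 fold change of -0.37, or -0.96 with a pseudocount of 0.1. Mafk stood at 10.8, 11.0 and 11.5 FPKM in MWA+PBS versus 9.49, 11.5 and 10.8 in MWA+2DG. Its groups overlapped, and its log2 fold change of -0.06 ± 0.08 was smaller than its SE. The Maff and Mafk promoters are printed because this pair of paralogs differed in level and in fold. Maff has 3 RefSeq start windows, of which the stretch with a full CRE, TGACGTCA, is shown, at chr15:79347410-79347519 on the plus strand. Mafk is at chr5:139791426-139791535 on the plus strand. Capitals mark TGACGTCA in Maff, which holds TGACG on each strand, and TGACG in Mafk.
Maff: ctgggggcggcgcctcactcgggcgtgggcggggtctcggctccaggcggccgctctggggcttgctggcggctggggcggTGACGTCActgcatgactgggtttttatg
Mafk: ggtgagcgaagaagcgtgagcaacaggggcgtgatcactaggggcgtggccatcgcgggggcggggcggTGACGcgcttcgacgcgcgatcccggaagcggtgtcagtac
TGACGTCA, searched on both strands, was found for Maff alone among the 10 genes and in 1.79% of all windows. For every motif a gene was counted if any of its windows matched, while the percentages count single windows, so the 3 windows of Maff favour a match. The TGACATCA match of Maff lay in another of its windows than the one printed.

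Placed among the 12444 genes tested, ordered from the largest fall in log2(FPKM + 1), Jun stood 4th, Fosb 5th and Fos 17th. Junb stood 314th and Jund 847th, and Mafk, the last of the 9, stood 4370th. Just inside the filter was Atf3, whose level was at the 8.40 percentile of the genes tested, and just outside it was Maff. Leaving out single libraries kept all 10 log2 fold changes below 0, except that Mafk was no longer below 0 without MWA+2DG replicate 4.

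**Figure D2:**
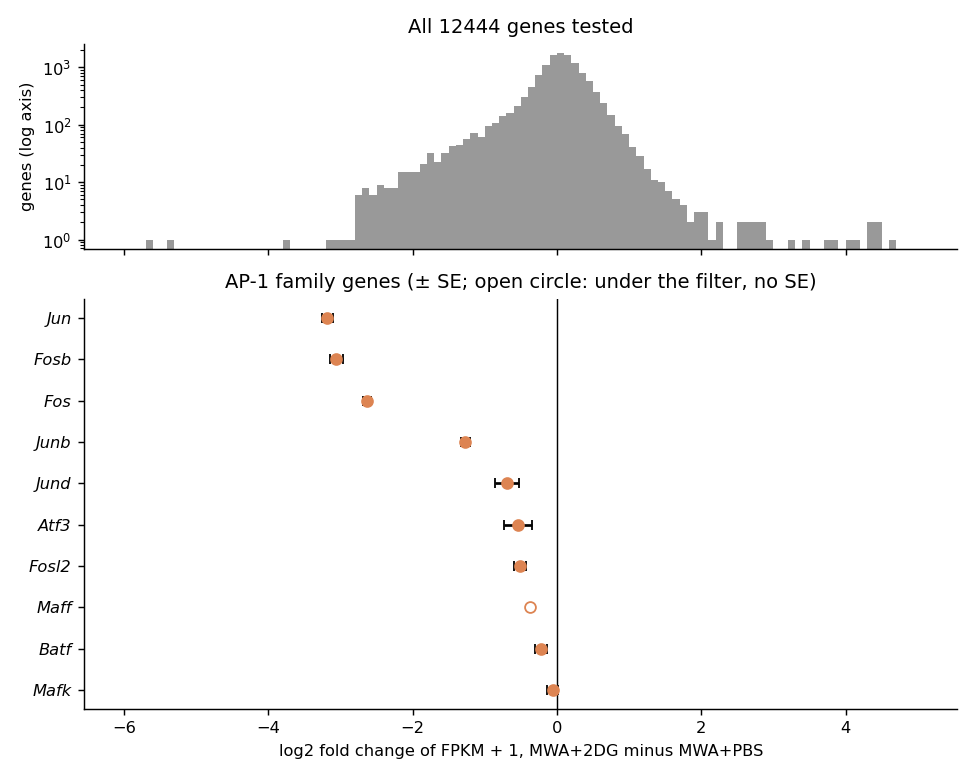
Log2 fold change of FPKM + 1, MWA+2DG minus MWA+PBS (x axis): above, the number of genes per bin of 0.1 among the 12444 tested (log axis); below, each AP-1 family gene with its SE, Maff as an open circle because it was under the filter. Jun, Fosb and Fos lie in the far left tail, and Batf and Mafk lie near 0.

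The make-up of the family differed along with its sum. In MWA+PBS the order of levels was Junb, Fos, Jun, Jund, Fosb, Mafk, Batf, Fosl2, Atf3 and Maff, and no neighbours in that order overlapped between samples. In MWA+2DG it was Junb, Jund, Fos, Mafk, Batf, Jun, Fosl2, Fosb, Atf3 and Maff, and only the ranges of Batf and Jun overlapped. Fos, Fosb and Jun, grouped here because they had the largest falls, made up 49.5% ± 1.16 of the summed FPKM in MWA+PBS versus 19.2% ± 0.757 in MWA+2DG. Junb and Jund made up 43.9% ± 1.67 and 63.8% ± 0.669. The direction of these shares was fixed by that choice. The ratio of Fos to Junb FPKM was 0.810 ± 0.0226 in MWA+PBS versus 0.302 ± 0.00467 in MWA+2DG. A ratio within a library shows unequal change and not which gene moved.

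**Figure D3:**
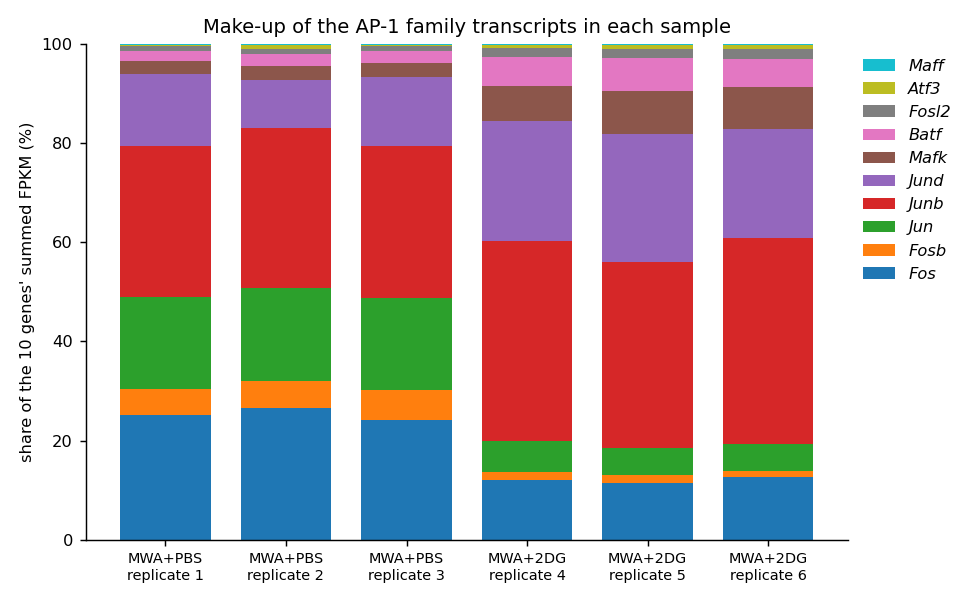
Share (%) of the summed FPKM of the 10 AP-1 family genes taken by each gene, in each of the 6 samples. Fos, Fosb and Jun at the foot of the bars take 48.7% to 50.8% in MWA+PBS versus 18.4% to 19.9% in MWA+2DG.

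Other gene groups moved with the AP-1 genes across the same 6 samples. They were tested with limma on log2(FPKM + 1), and a gene is named higher or lower where its Benjamini-Hochberg adjusted p was under 0.05. By that rule 17.1% of the 12444 genes were lower in MWA+2DG and 22.3% were higher, and for each such gene named here all values of a group lay on the same side of all values of the other. Of 11 heat shock genes tested, most of which encode chaperones or their helpers, many induced by stress, 10 were lower and 0 higher. The median log2 fold change was -1.12. The gene not called was Hsf1, which encodes a transcription factor and not a chaperone (log2 fold change -0.00, limma adjusted p = 0.975). Hspa1b and Hspa1a, near-identical copies of the inducible HSP70 gene whose reads may be split between them, had fold changes of -5.64 on the log2 scale (limma adjusted p = 1.72e-08) and -5.34 (2.69e-08), and Hsph1, an HSP70 helper, had -2.36 (1.87e-07). Hspa1b stood at 244, 220 and 233 FPKM in MWA+PBS versus 3.68, 3.92 and 3.43 in MWA+2DG. The summed heat shock level was 1535–1614 FPKM in MWA+PBS versus 523–553 in MWA+2DG.

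Among the cell type markers, 13 of 14 macrophage genes were lower in MWA+2DG, by ratios from 3.22 for Marco to 7.29 for C1qb, while Lyz2, which neutrophils also express, was higher (log2 fold change 0.41, limma adjusted p = 0.00449; -0.01 and 0.879 with T lineage scaling). The receptor gene Csf1r stood at 72.8, 61.4 and 69.4 FPKM in MWA+PBS versus 10.5, 10.7 and 10.5 in MWA+2DG (log2 fold change -2.57, limma adjusted p = 4.79e-07). All 8 erythroid genes tested were lower, with sums of 292–347 FPKM against 66.9–84.7. Of 9 dendritic cell genes only 2, Flt3 and Itgax, passed the filter, and both were lower. Sums over the whole list were 10.2–12.1 against 4.42–5.41. Groups were apart and lower for 6 of the 9 (21.9% over all genes that passed the filter). Zbtb46, Clec9a and Cd209a, all under the filter, overlapped. Among the AP-1 genes, the ratios of Fosb and Jun, 12.2 and 10.1, were above the range of those 13 macrophage genes. The ratio of Fos, 6.51, was inside it, and those of the other 7 genes were below it. In the other direction, 10 of 13 neutrophil genes were higher and 2, Mpo and Elane of early granulocytes, were lower. S100a8, a neutrophil calcium-binding protein, stood at 5.31 ± 2.17 and 136 ± 12.4 FPKM (log2 fold change 4.50, limma adjusted p = 8.86e-06). All 8 B cell genes tested were higher, Cd79a among them (1.22 ± 0.261 against 12.5 ± 1.48 FPKM, log2 fold change 2.60, limma adjusted p = 5.31e-06), and the B cell sums were 10.4–11.6 and 55.0–59.5 FPKM. Of 4 NK genes tested, 2 were higher and 2, Tyrobp and Ncr1, were lower, with sums of 102–109 and 106–112 FPKM. Eomes, among the higher, stood at 22.8 ± 0.337 and 45.6 ± 1.87 FPKM. It kept its call with T lineage scaling (log2 fold change 0.55, limma adjusted p = 9.24e-05). Prf1, the other of the higher, was at 0.02 on the log2 scale with that scaling (limma adjusted p = 0.874). Among 5 CD4 genes tested 2 were lower and 0 higher, with sums of 17.0–18.8 and 16.6–17.3. Of 15 T lineage genes, 13 were higher and 0 lower, with sums of 1480–1551 and 2039–2177 FPKM. The part of these other cells in the AP-1 values was not tested.

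**Figure D4:**
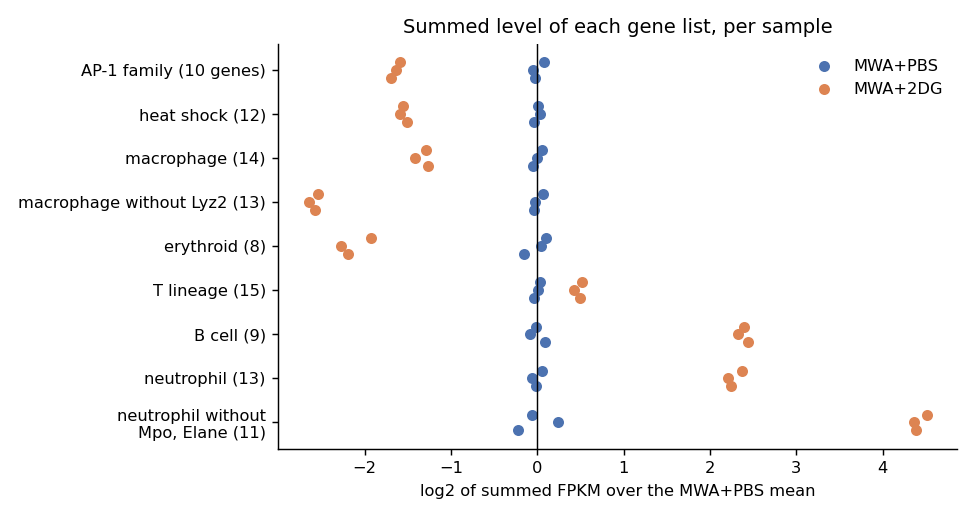
Summed FPKM of each gene list in each sample, as log2 of its ratio to the MWA+PBS mean (x axis), for MWA+PBS (blue) and MWA+2DG (orange). The AP-1 family, heat shock, macrophage and erythroid sums lie below 0 in all 3 MWA+2DG samples, and the T lineage, B cell and neutrophil sums lie above 0. Without Lyz2 the macrophage sum is at -2.54 to -2.64, below the AP-1 sum at -1.59 to -1.69.

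Since the T lineage genes themselves were higher in MWA+2DG, the values were also scaled to the mean of those 15 genes. This lowered every log2 fold change by 0.42 and moved the median of all genes tested to -0.37. With it the log2 fold changes were -3.60 for Jun, -3.48 for Fosb, -3.05 for Fos, -1.69 for Junb and -1.11 for Jund. They were -0.96 for Atf3, -0.93 for Fosl2, -0.79 for Maff, -0.64 for Batf and -0.48 for Mafk, so that the value of the last stood near that of the median gene. Under this scaling 94 of the 122 genes in the pathway lists that follow were lower and 3, Rasgrp1, Mapk11 and Mmp9, were higher. Of all 12444 genes, 68.0% were lower and 3.91% higher under the same scaling, so the counts given with T lineage scaling are to be read against those shares, and each other gene given as higher in those lists is so only in relation to the whole library.

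Of the 6 other AP-1 subunits, 3 passed the filter, of which 1 was lower and 0 higher; with T lineage scaling all 3 were lower. Jdp2, a repressor that pairs with JUN proteins, was lower, at 4.84, 3.46 and 3.74 FPKM in MWA+PBS versus 0.960, 1.01 and 1.16 in MWA+2DG (log2 fold change -1.29 ± 0.12, limma adjusted p = 1.50e-04). Atf2 and Atf7, ATF proteins that are activated by phosphorylation, had fold changes of 0.02 on the log2 scale (limma adjusted p = 0.840) and -0.01 (0.885), with overlapping groups. Fosl1, Batf2 and Batf3 were under the filter, with means of 0.183, 0.222 and 0.130 FPKM over all samples. Batf3, a factor of cross-presenting dendritic cells, was at 0.233 ± 0.0208 FPKM in MWA+PBS versus 0.0267 ± 0.0231 in MWA+2DG.

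Of 8 other MAF, BACH and NFE2-related genes tested, which include partners of Maff and Mafk, 5 were lower and 0 higher (median log2 fold change -0.28); with T lineage scaling all 8 were lower. Mafg, the other small MAF gene and a paralog of Maff and Mafk, was among the lower, at 6.52, 5.31 and 6.37 FPKM in MWA+PBS versus 5.02, 4.41 and 4.75 in MWA+2DG (log2 fold change -0.30, limma adjusted p = 0.0295). It is named for that relation, after its values were seen, and its call was lost without MWA+PBS replicate 1 or 3 or MWA+2DG replicate 5 or 6 (limma adjusted p up to 0.101) and with no filter on low values (0.0712). Maf had a fold change of -1.60 on the log2 scale (limma adjusted p = 1.35e-05) and Nfe2, a factor of the erythroid and megakaryocyte lineages, -0.86 (7.40e-04). Nrl, a retinal factor, was listed at 0 in all samples. Of 10 CREB, ATF and C/EBP genes, 5 were lower and 0 higher (median -0.29), and all 10 were lower with T lineage scaling. The largest falls were in Cebpa, a myeloid factor, by -1.83 (limma adjusted p = 3.09e-05), Atf6 of the unfolded protein response by -0.64 (5.25e-04), and Atf4 of the integrated stress response by -0.42 (0.0103). The level of Cebpa moved in the direction of 13 of 14 macrophage markers, all 8 erythroid markers tested, and Mpo and Elane. It moved against 10 of 13 neutrophil markers, and which cells its RNA came from was not tested.

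Of 9 NFAT, IRF and other genes whose products act with AP-1, 2 were higher and 1 lower (median log2 fold change 0.09), shares near or below those of all genes tested; with T lineage scaling 0 were higher and 6 lower. Irf4, the partner of BATF, stood at 2.76 ± 0.0681 FPKM in MWA+PBS versus 3.95 ± 0.173 in MWA+2DG (log2 fold change 0.40, limma adjusted p = 0.00321; -0.02 with T lineage scaling). Nfat5 had 0.21 (limma adjusted p = 0.0366), and its call was lost when any single library other than MWA+PBS replicate 2 was left out (limma adjusted p up to 0.126). It was also lost with quantile normalization (0.0642), median ratio scaling (0.104), T lineage scaling (0.0525), eBayes without a trend (0.0508) and no filter on low values (0.0620), each a limma adjusted p. Irf8, a factor of myeloid and B cells, was lower, at 12.1 ± 0.579 and 5.09 ± 0.118 FPKM (log2 fold change -1.10, limma adjusted p = 1.19e-05).

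Of 33 kinases and adaptors that induce AP-1, 9 were higher and 4 lower, shares near the 22.3% and 17.1% of all genes tested. Their median log2 fold change of 0.05 was equal to that of all genes tested. With T lineage scaling 2 were higher and 25 lower. Rasgrp1, which activates RAS below the T cell receptor, stood at 51.0 ± 1.61 FPKM in MWA+PBS versus 78.6 ± 2.92 in MWA+2DG (log2 fold change 0.61, limma adjusted p = 1.17e-04; 0.19 with T lineage scaling). Mapk11, the gene of p38 beta, had 0.69 (limma adjusted p = 0.00284; 0.27 with T lineage scaling). Lower were Mapk14, the gene of p38 alpha, by -0.41 (limma adjusted p = 6.94e-04), Map2k3, a kinase of p38, by -0.41 (0.0114), and Rps6ka5, the kinase MSK1, by -0.29 (0.0312). The call of Rps6ka5 was lost when any single library was left out (limma adjusted p up to 0.0950), with quantile normalization (0.0534) and with no filter (0.0557). The factors that act on the Fos and Jun promoters gave 3 higher and 0 lower of 12 (median 0.07), and 0 higher and 8 lower with T lineage scaling. Without that scaling the shares were near or below those of all genes tested. The higher genes were Mef2a with 0.30 (limma adjusted p = 0.00388), and the serum response factor partners Elk3 with 0.28 (0.00867) and Elk4 with 0.26 (0.0317). With T lineage scaling these were -0.12, -0.14 and -0.16. The call of Elk4 was lost without any single MWA+PBS library or MWA+2DG replicate 5 (limma adjusted p up to 0.0859), and with quantile normalization (0.0597), median ratio scaling (0.0866) and no filter (0.0763).

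**Figure D5:**
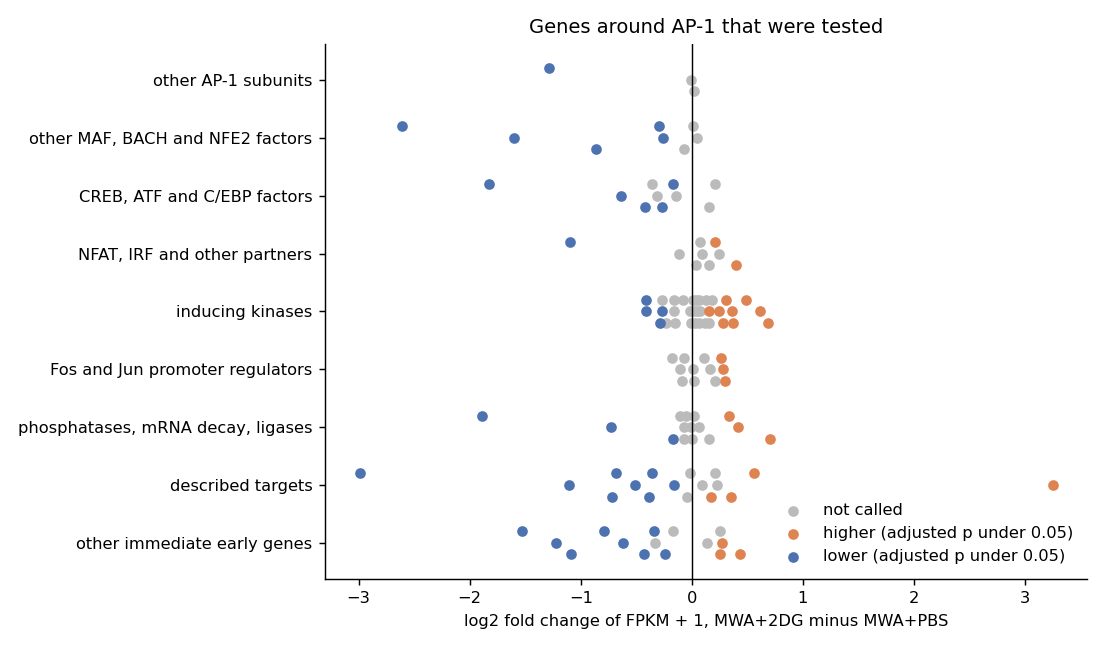
Log2 fold change of FPKM + 1, MWA+2DG minus MWA+PBS (x axis), of each tested gene in 9 lists of genes around AP-1, with genes lower (blue) or higher (orange) at an adjusted p under 0.05 and the rest in grey. Kinases and promoter regulators gather around 0, while immediate early genes and described targets reach further to the left; Mmp9, at 3.25, is far to the right.

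Genes whose products restrain AP-1 signalling, by dephosphorylating MAP kinases, by decay of short-lived mRNAs or by ubiquitination of JUN, gave 3 higher and 3 lower of 15 (median log2 fold change -0.01), shares near those of all genes tested; with T lineage scaling 0 were higher and 12 lower. Dusp1, a MAP kinase phosphatase that is itself an immediate early gene, stood at 21.0, 18.4 and 18.9 FPKM in MWA+PBS versus 5.27, 3.64 and 4.70 in MWA+2DG (log2 fold change -1.89, limma adjusted p = 2.01e-05). Zfp36, which encodes the mRNA decay factor tristetraprolin, had -0.73 (limma adjusted p = 8.41e-05) and its paralog Zfp36l2 -0.17 (0.0333). Dusp2 had 0.70 (limma adjusted p = 0.00459), Dusp4 0.42 (0.0177) and Fbxw7, a ubiquitin ligase subunit that acts on c-Jun, 0.33 (0.0150). With T lineage scaling Dusp2 had 0.27, Dusp4 -0.00 and Fbxw7 -0.09. Zfp36l2 lost its call without any library except MWA+PBS replicate 2 (limma adjusted p up to 0.128) and with eBayes without a trend (0.0565), Dusp4 without MWA+2DG replicate 4 or 6 (up to 0.0581), and Fbxw7 without those or MWA+PBS replicate 1 (up to 0.0570).

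Of 15 immediate early genes tested outside the AP-1 family, 8 were lower and 3 higher, with a median log2 fold change of -0.33; with T lineage scaling 10 were lower and 0 higher. Klf4 had a fold change of -1.53 on the log2 scale (limma adjusted p = 9.13e-06), Nr4a1, a nuclear receptor gene induced by T cell receptor signals, -1.22 (4.17e-05), and Rhob -1.09 (3.78e-05). Nr4a1 stood at 12.5, 12.0 and 12.8 FPKM in MWA+PBS versus 5.47, 4.55 and 4.27 in MWA+2DG, with the groups apart. Egr3 had 0.43 (limma adjusted p = 0.0202), Myc 0.27 (0.0114) and Btg2 0.25 (0.0176). With T lineage scaling these were 0.00, -0.15 and -0.17. Egr3 lost its call without MWA+2DG replicate 4 or 5 (limma adjusted p up to 0.0653) or with no filter (0.0663) and Btg2 without MWA+PBS replicate 1 or 3 or MWA+2DG replicate 5 (up to 0.0575).

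Of 17 described AP-1 targets tested, 8 were lower and 4 higher, with a median log2 fold change of -0.04; with T lineage scaling 12 were lower and 1 higher. Hmox1, the heme-degrading enzyme that splenic macrophages express strongly, stood at 229, 211 and 223 FPKM in MWA+PBS versus 27.5, 25.2 and 28.1 in MWA+2DG (log2 fold change -2.99, limma adjusted p = 1.87e-07). Spp1, the gene of osteopontin, had -1.11 (limma adjusted p = 0.0114; 0.0524 with no filter on low values) and the chemokine gene Ccl3 -0.72 (0.00893). Mmp9, a gelatinase stored in neutrophil granules, rose from 0.483 ± 0.0473 to 13.1 ± 0.440 FPKM (log2 fold change 3.25, limma adjusted p = 1.87e-07). Fasl had 0.56 (limma adjusted p = 0.0226) and Plaur 0.35 (0.0350), against 0.14 and -0.08 with T lineage scaling. Fasl lost its call without MWA+PBS replicate 1 or 2 or MWA+2DG replicate 4 or 6 (limma adjusted p up to 0.0758) and with no filter (0.0778), and Plaur without MWA+PBS replicate 1 or 3 or MWA+2DG replicate 4 or 5 (up to 0.104) and with no filter (0.0889). Il2 and Cdkn2a were listed at 0 in all MWA+2DG samples and had means of 0.153 and 0.187 FPKM in MWA+PBS.

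The genes whose pattern was most like that of the AP-1 genes over the 6 samples were sought by Pearson's r of log2(FPKM + 1) with the mean z-score of the 9 genes that passed the filter. They were Nsd2 (r = 0.9991), Dusp3 (0.9990), Ighv9-4 (0.9989), Tmem26 (0.9981) and Tspan4 (0.9981). The points share 2 groups of 3 libraries, so r mostly reflects the gap between the groups, and 997 of 12435 genes, 8.02%, had an r above 0.95. Nsd2, a histone methyltransferase gene, stood at 4.62 ± 0.0231 FPKM in MWA+PBS versus 3.25 ± 0.117 in MWA+2DG. Dusp3, which encodes a phosphatase of ERK and JNK, stood at 1.78 ± 0.0814 and 0.603 ± 0.0924 FPKM.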

How the data were processed

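The deposited values were FPKM per gene, 1 file per sample, in which the authors had scaled fragments by transcript length and library size. The authors isolated splenic CD8+ T cells with a CD8+ T cell isolation kit, sequenced poly(A) RNA, and per the methods used fastp, HISAT2, StringTie and ballgown. The submitters' processing notes name cutadapt 1.9, HISAT2 2.0.4, UMI-tools, StringTie 1.3.4d and the build mm9; none of the sources used here states whether molecular identifiers or strand were used. Counts were not used here, the depth per sample is therefore unknown, and intervals for counting error are left out. Totals of FPKM per sample were 291803 to 313257, with 22414 to 23340 genes above 0.

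Symbols came from the GENCODE M21 gene table (28689 of 28773 IDs matched, 84 not), and all 10 AP-1 genes matched. Mrtfa and Mrtfb were matched through older symbols, and Ahsp and Klra8 were not found. log2(FPKM + 1) of the 12444 genes with a mean FPKM of at least 1 was fitted with limma 3.58.1 in R 4.3.3 (lmFit, eBayes with a trend), two-sided, without covariates, with Benjamini-Hochberg adjustment over all of them and a threshold of 0.05. The script was tested on simulated data. No batch was given in the labels. Promoter sequences were RefSeq windows on GRCm38.p6, matched for all 10 genes. The members and lists were chosen with earlier results of these data known. Named genes were the 10 members, the other AP-1 subunits, up to 3 higher and 3 lower per list by absolute log2 fold change among those called with groups apart (for the marker lists, counts and reference markers are given in place of most of these), and the 5 most alike genes. Some genes that this rule names are not reported here. Alternatives were another pseudocount, no filter or a higher one, quantile, median ratio and T lineage scaling, eBayes without a trend, and leaving out each library. Where a library was left out, its group had 2 samples.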

Additional observations from a re-analysis of the deposited data

How the results depend on the processing

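The main count of 4907 genes called, 2134 lower and 2773 higher, became 2951, 1164 and 1787 with a mean FPKM of at least 5, where fewer genes were tested, and 8953, 8466 and 487 with T lineage scaling. Leaving out single libraries gave 3706 to 5195 called, 1631 to 2217 lower and 1989 to 2978 higher. The median log2 fold change of the 10 AP-1 genes, -0.61, was -0.90 with a pseudocount of 0.1, -1.03 with T lineage scaling, and -0.72 to -0.59 without single libraries, the lowest without MWA+PBS replicate 2. In the 9 pathway lists, 59 genes called, 35 lower and 24 higher, became 97, 94 and 3 with T lineage scaling, and 40 to 60, 24 to 37 and 15 to 23 without single libraries; the 15 higher were without MWA+2DG replicate 4. T lineage scaling reversed 2 of those calls; a higher filter left out genes, and no other alternative reversed any. With no filter on low values 10 of the lower and 7 of the higher calls in these lists were lost, with median ratio scaling 0 and 5, and with quantile normalization 2 and 3. Median ratio and quantile scaling kept all 10 AP-1 values below 0. No paired analysis was possible because the labels number samples 1 to 3 in one group and 4 to 6 in the other, so no number is shared. FPKM without counts limits what can be said of low genes such as Maff and Atf3.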
